A study of Homo sapiens with 6 samples.

Results

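In cells of the anaplastic thyroid carcinoma line 8505C, the thrombin receptor gene F2RL3 stood far lower in all 3 libraries labelled HHEX shRNA than in the control libraries, while tissue factor stood higher. The 8 genes described are the receptors F2R, F2RL1, F2RL2 and F2RL3, tissue factor (F3), its inhibitor TFPI, the related inhibitor TFPI2, and thrombomodulin (THBD). They were looked up by name among the 58735 named genes of the deposited count table, and all 8 were among the 14280 genes that passed the filter on low counts. The set was chosen by the counts of F2RL3, which were lower in every knockdown library than in the controls, so that the comparison of the groups selected it. The values of the 8 genes are therefore given as a description, without a test.

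RNA-seq was run on 3 libraries labelled HHEX shRNA with the genotype HHEX KD (columns KD1, KD2 and KD3) and 3 labelled control shRNA with the genotype wild-type (control1, control2 and control3). All 6 come from 8505C, an established human line, are labelled untreated, and share plating and RNA extraction; the labels give no hairpin sequence, vector or clone. HHEX encodes a homeobox transcription factor of thyroid and liver development. Total counts per library were 13333245 to 15144176, so that 3 counts corresponded to 0.198 to 0.225 CPM, the count scaled to library size.

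HHEX (ENSG00000152804, chromosome 10) had 14.8, 7.93 and 7.12 CPM in KD1, KD2 and KD3, against 12.6, 12.8 and 11.98 CPM in the control libraries. The library labelled KD1 thus stood at 118% of the control mean and went against its label, while KD2 stood at 63.6% and KD3 at 57.1% (log2 fold change -0.33, adjusted p = 0.527, edgeR). Across all genes KD1 and KD2 resembled each other (Pearson r of log2 CPM 0.989), and KD3 was closer to the control libraries (0.971 to 0.977) than to KD1 and KD2 (0.955 and 0.956). Every direction below refers to libraries by these labels. The series calls the libraries biological replicates, but in each group the titles of 2 of the 3 libraries share their first replicate number. The labels do not say what that number marks, the columns cannot be tied to titles, and the independent replicates may number 2 per group. The SDs given for n = 3 measure only the spread between these libraries, and the p-values treat the 3 libraries of a group as independent.

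Of 8 thyroid follicular cell markers, 3 reached 1 CPM (PAX8, NKX2-1 and FOXE1), while TG, TSHR and SLC5A5 stayed at or under 0.299 CPM in every library. The platelet genes GP9, PF4, PPBP and TREML1 had no counts. Of 8 endothelial markers, 4 reached 1 CPM (PECAM1, CDH5, TIE1 and ROBO4), and the list summed to 23.3 to 28.1 CPM in the HHEX shRNA libraries against 40.7 to 44.8 CPM in the controls. VWF, TEK and KDR stayed at or under 0.493 CPM. THBD, TFPI and the thrombin receptors are known from endothelium, and the part of endothelial transcripts in the values below was not tested. The hepatocyte list, in which SERPINA1 was the 1 gene at 1 CPM or more, summed to 0.539 to 3.45 CPM in HHEX shRNA libraries and 4.26 to 6.96 CPM in controls. The sums of the other lists overlapped. They were 26.5 to 45.2 CPM in HHEX shRNA libraries and 34.1 to 57.6 CPM in controls for thyroid cells, and 14.6 to 48.1 CPM in HHEX shRNA libraries and 43.7 to 55.8 CPM in controls for fibroblasts. Leukocyte markers summed to 4.36 to 4.99 CPM in HHEX shRNA libraries and 3.74 to 5.31 CPM in controls, and markers of platelets and their precursors to 1.95 to 2.71 CPM in HHEX shRNA libraries and 1.93 to 3.51 CPM in controls.

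Thrombin signals to cells by cutting the outer end of protease-activated receptors, G protein-coupled receptors whose new amino terminus then folds back and acts as a tethered ligand. F2R encodes PAR1, the high-affinity thrombin receptor, F2RL2 encodes PAR3, which often serves as a cofactor, and F2RL3 encodes PAR4, which lacks the thrombin-binding motif of PAR1 and responds to higher thrombin levels. F2RL1 encodes PAR2, which is cut by trypsin-like proteases and by the complex of tissue factor and factor VIIa, and poorly by thrombin. Tissue factor is the membrane receptor for factor VIIa and starts the extrinsic clotting pathway; it is abundant on many carcinoma cells. TFPI blocks factor Xa and the tissue factor complex, TFPI2 is a matrix-bound Kunitz inhibitor of plasmin and trypsin, and thrombomodulin binds thrombin and turns it to the activation of protein C.

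Windows around the transcription start were taken from RefSeq (GRCh38.p14, 250 bases before to 50 after the start), where F2RL1, F2RL2, F2RL3, F3, TFPI and TFPI2 were matched, 6 of the 8 genes. Those of F2RL3, F3 and TFPI2 are shown because F2RL3 had the largest difference of the 8 genes and F3 and TFPI2 had the highest levels and stood on opposite sides of the controls. The RefSeq starts lie inside the gene bounds that the count table gives. Capitals mark matches, on either strand, to 4 motifs, and no match overlapped another. The motifs were the letters TATAAA for the TATA box and TGANTCA for AP-1. For the GC box they were GGGCGG, and ATTAA is a core that homeodomain proteins bind.
F2RL3, chr19:16888749-16889048, plus strand: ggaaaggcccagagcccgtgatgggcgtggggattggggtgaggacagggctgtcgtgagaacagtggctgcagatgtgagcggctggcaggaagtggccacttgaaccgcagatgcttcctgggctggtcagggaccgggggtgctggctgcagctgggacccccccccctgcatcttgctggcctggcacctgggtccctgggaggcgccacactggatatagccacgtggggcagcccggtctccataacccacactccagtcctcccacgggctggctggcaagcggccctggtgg
F3, chr1:94541710-94542009, minus strand: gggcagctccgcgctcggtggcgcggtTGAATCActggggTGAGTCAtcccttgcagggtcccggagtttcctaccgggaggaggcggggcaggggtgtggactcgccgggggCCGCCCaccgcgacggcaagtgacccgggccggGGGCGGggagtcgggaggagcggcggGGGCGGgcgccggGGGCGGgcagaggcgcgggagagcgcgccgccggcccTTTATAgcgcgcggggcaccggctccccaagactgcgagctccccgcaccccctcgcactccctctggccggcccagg
TFPI2, chr7:93890704-93891003, minus strand: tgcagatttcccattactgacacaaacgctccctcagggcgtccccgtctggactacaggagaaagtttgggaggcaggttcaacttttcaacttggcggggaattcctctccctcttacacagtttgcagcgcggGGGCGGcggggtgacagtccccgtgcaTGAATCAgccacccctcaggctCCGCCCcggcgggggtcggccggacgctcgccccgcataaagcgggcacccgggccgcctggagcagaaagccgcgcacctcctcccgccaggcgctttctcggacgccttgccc

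The F2RL3 window held none of the 4 motifs, at a GC content of 67.3% and with 11 CpG pairs. The F3 window held 2 AP-1 matches that begin at -223 and -210 from the start, 4 GC boxes and 1 TATA box on the opposite strand at -28, with 38 CpG pairs and a GC content of 77.3%. The TFPI2 window held 1 AP-1 match at -87 and 2 GC boxes, with 26 CpG pairs. Of the matched windows not shown, that of F2RL1 held the ATTAA core at -227 and 3 GC boxes. The F2RL2 window held 1 AP-1 match at -37, and the TFPI window held none of the motifs. Observed over expected CpG was 0.328 for F2RL3, 0.862 for F3 and 0.819 for TFPI2, beside a median of 0.579 over all 35116 windows. Of these windows 7.71% held an AP-1 match, 45.0% a GC box, 11.5% a TATA box and 24.4% the ATTAA core. A match describes letters only, and no binding was measured.

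F2RL3 (ENSG00000127533, chromosome 19, 16888860 to 16892606, plus strand) had 10, 6 and 70 counts in KD1, KD2 and KD3, against 253, 320 and 323 in control1, control2 and control3. Scaled to library size these are 0.674, 0.429 and 4.93 CPM in the HHEX shRNA libraries, against 18.9, 21.2 and 21.0 CPM in the controls. The groups lay far apart, and within the HHEX shRNA group KD3 was 7.32 times KD1 and 11.5 times KD2. Exact Poisson intervals, which cover counting error only, were 0.323 to 1.24 CPM for KD1, 0.157 to 0.933 CPM for KD2 and 3.85 to 6.23 CPM for KD3. The gap between KD3 and the other two was thus larger than counting error. KD1 stood at 3.30% of the control mean, KD2 at 2.10% and KD3 at 24.2%, which is 30.3-fold, 47.6-fold and 4.13-fold lower.

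The mean of F2RL3 was 2.01 ± 2.53 CPM in HHEX shRNA libraries and 20.4 ± 1.29 CPM in control libraries (SD, n = 3 each), with a fitted log2 fold change of -3.34 (SE 0.74). Without KD3 it was -5.16, so that the size of the group difference depends on this library. In bulk RNA, fewer cells with the transcript and less of it per cell cannot be told apart. Among the 14280 tested genes, 11, F2RL3 included, had every HHEX shRNA library at or below 24.2% of the control mean, the share of F2RL3 in KD3. A log2 fold change at or below that of F2RL3 was found for 4 genes, F2RL3 included. The library labelled KD1, in which HHEX itself was not reduced, had F2RL3 nearly as low as KD2.

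**Figure D1:**
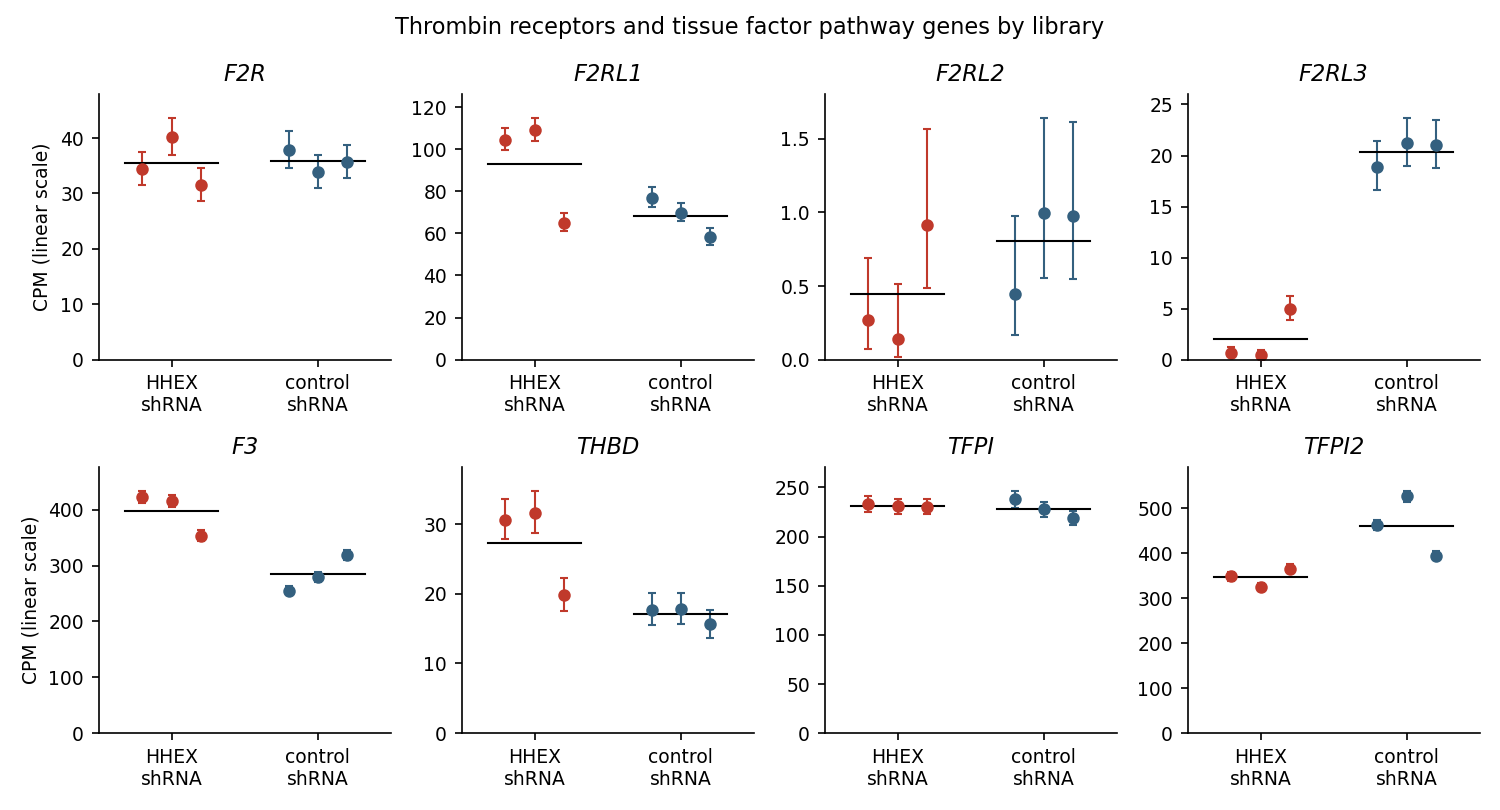
Level of each of the 8 genes in CPM (linear axes, 1 point per library, HHEX shRNA in red as KD1, KD2, KD3 and control in blue as control1, control2, control3; bars are 95% exact Poisson intervals of the count and black lines are group means). F2RL3 lay at 0.429 to 4.93 CPM in HHEX shRNA libraries and at 18.9 to 21.2 CPM in control libraries, while TFPI was level. F2RL2 lay close to or under the floor of 3 counts in KD1, KD2 and control1.

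F2RL1 (ENSG00000164251, chromosome 5, 76818933 to 76835315, plus strand) was the most abundant of the receptors. It had 105, 109 and 65.1 CPM in KD1, KD2 and KD3, against 77.0, 69.9 and 58.4 CPM in the controls. KD1 and KD2 stood above every control library, at 153% and 160% of the control mean, while KD3, at 95.1%, lay among the controls, so that the groups overlapped. The means were 93.0 ± 24.3 CPM in HHEX shRNA libraries and 68.4 ± 9.41 CPM in control libraries (SD, n = 3 each), with a log2 fold change of 0.44 (SE 0.21). Without KD3 the log2 fold change was 0.67.

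F2R (ENSG00000181104, chromosome 5, 76716043 to 76735781, plus strand) had 34.4, 40.2 and 31.6 CPM in KD1, KD2 and KD3, against 37.9, 33.9 and 35.7 CPM in the controls. The highest and the lowest library were both of the HHEX shRNA group. Means of 35.4 ± 4.40 CPM in HHEX shRNA libraries and 35.8 ± 2.01 CPM in control libraries (SD, n = 3 each) differed by less than the spread, with a log2 fold change of -0.02 (SE 0.14).

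F2RL2 (ENSG00000164220, chromosome 5, 76615482 to 76623434, minus strand) had 4, 2 and 13 counts in KD1, KD2 and KD3, against 6, 15 and 15 in the controls. The counts of KD1 and control1 are close to the floor of 3, and that of KD2 lies under it. The levels were 0.270, 0.143 and 0.916 CPM in HHEX shRNA libraries, against 0.448, 0.996 and 0.976 CPM in control libraries. KD1 and KD2 lay below every control and KD3 lay among them, so that the groups overlapped (log2 fold change -0.87, SE 0.70). With counts this few and this spread between the HHEX shRNA libraries, no difference in F2RL2 was resolved. Without KD3, the HHEX shRNA library with the most counts, the log2 fold change was -1.90.

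F2RL2, F2R and F2RL1 lie next to each other within 219.8 kb of chromosome 5, and F2RL3 lies alone on chromosome 19. F2RL2 sits within IQGAP2, which had at most 0.211 CPM, and the genes annotated on either side of the cluster, AC026725.1 and RN7SL208P, did not pass the filter. None of the 3 clustered genes had its groups apart.

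To compare receptors with each other, counts were divided by the merged exon length and scaled to the same total in each library (TPM). F2RL3 made up 0.440%, 0.262% and 4.51% of the summed receptor TPM in KD1, KD2 and KD3, against 13.3%, 15.9% and 17.4% in the controls. F2RL1 made up 80.2%, 78.6% and 70.0% in the HHEX shRNA libraries, against 63.6%, 61.6% and 56.6% in the controls. For both genes the shares of the groups did not overlap. The share of F2R was 19.2%, 21.0% and 24.7% in the HHEX shRNA libraries, against 22.8%, 21.7% and 25.2% in the controls, and overlapped. The summed receptor TPM was 171, 190 and 122 in KD1, KD2 and KD3, against 166, 144 and 146 in the controls, so that the highest and lowest sums were both of the HHEX shRNA group. A share is bound to the others, and the higher share of F2RL1 in KD3 stands beside an F2RL1 level within the control range.

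**Figure D2:**
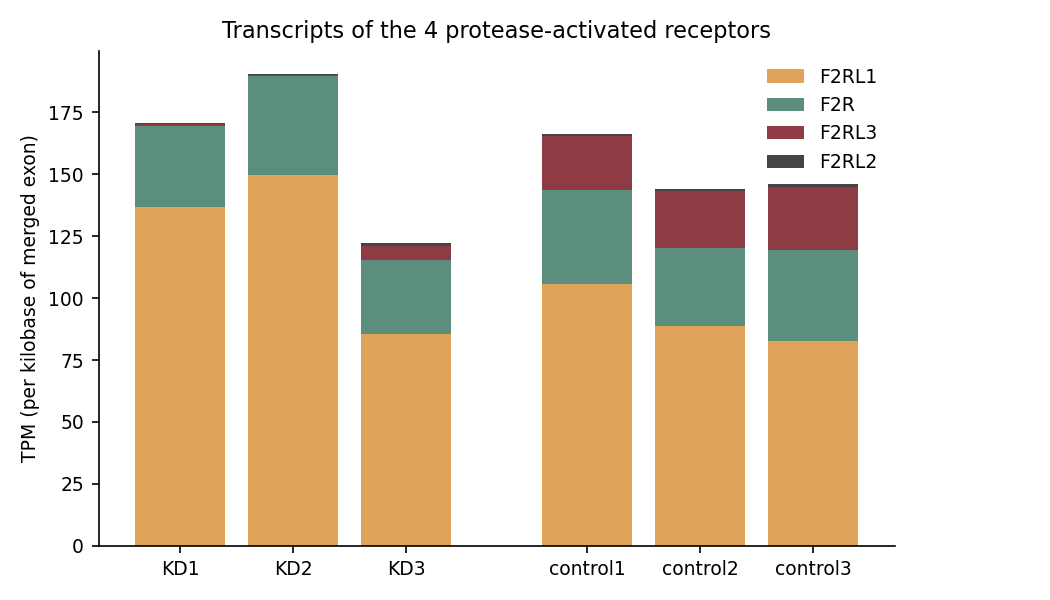
Stacked bars of the TPM of the 4 protease-activated receptors in each library (linear axis, TPM per kilobase of merged exon). The F2RL3 segment is 13.3% to 17.4% of the control bars and 0.262% to 4.51% of the HHEX shRNA bars, and F2RL1 is the largest segment in all 6.

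F3 (ENSG00000117525, chromosome 1, 94529225 to 94541800, minus strand) was higher in every HHEX shRNA library than in any control. It had 423, 416 and 353 CPM in KD1, KD2 and KD3, against 255, 280 and 319 CPM in control1, control2 and control3. KD3 and control3 were the closest pair across the groups. The means were 397 ± 38.3 CPM in HHEX shRNA libraries and 285 ± 32.2 CPM in control libraries (SD, n = 3 each), a 1.40-fold difference with a log2 fold change of 0.48 (SE 0.14). Leaving out any 1 library kept the log2 fold change between 0.44 and 0.58.

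TFPI2 (ENSG00000105825, chromosome 7, 93885396 to 93890991, minus strand) lay the other way. It had 348, 325 and 365 CPM in KD1, KD2 and KD3, against 463, 526 and 394 CPM in the controls, so that every HHEX shRNA library was below every control. The means were 346 ± 20.3 CPM in HHEX shRNA libraries and 461 ± 65.9 CPM in control libraries (SD, n = 3 each), with a log2 fold change of -0.41 (SE 0.15). The spread was wider in the controls, and control3 and KD3 were the closest pair across the groups.

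TFPI (ENSG00000003436, chromosome 2, 187464230 to 187565760, minus strand) varied least. It had 233, 231 and 230 CPM in KD1, KD2 and KD3, against 238, 228 and 219 CPM in the controls, and the HHEX shRNA values lay inside the control range. The means were 231 ± 1.45 CPM in HHEX shRNA libraries and 228 ± 9.56 CPM in control libraries (SD, n = 3 each), with a log2 fold change of 0.02 (SE 0.11). Its sign is not fixed: it was -0.04 under upper-quartile scaling and lay between -0.01 and 0.08 when any 1 library was left out.

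THBD (ENSG00000178726, chromosome 20, 23045633 to 23049741, minus strand, 1 exon) had 30.6, 31.6 and 19.8 CPM in KD1, KD2 and KD3, against 17.7, 17.8 and 15.6 CPM in the controls. The groups did not overlap, but KD3 was close to the controls, and its counting interval (17.6 to 22.3 CPM) overlapped that of control2 (15.7 to 20.1 CPM). The means were 27.3 ± 6.55 CPM in HHEX shRNA libraries and 17.0 ± 1.23 CPM in control libraries (SD, n = 3 each), with a log2 fold change of 0.68 (SE 0.20). Without KD3 it was 0.89.

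The ratio of F3 to TFPI2, both in TPM, was 1.13, 1.19 and 0.902 in KD1, KD2 and KD3, against 0.514, 0.496 and 0.755 in the controls. The ratio of F3 to TFPI was 7.39, 7.34 and 6.25 in the HHEX shRNA libraries, against 4.37, 5.00 and 5.94 in the controls. Both ratios were higher in every HHEX shRNA library than in any control, with KD3 and control3 again the closest pair. For F3 to TFPI2 this follows from the levels above, since F3 was higher and TFPI2 lower in every HHEX shRNA library. TFPI varied little, so that the ratio of F3 to TFPI mostly repeats F3. Ratios of transcripts do not measure protein, secretion or clotting activity.

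**Figure D3:**
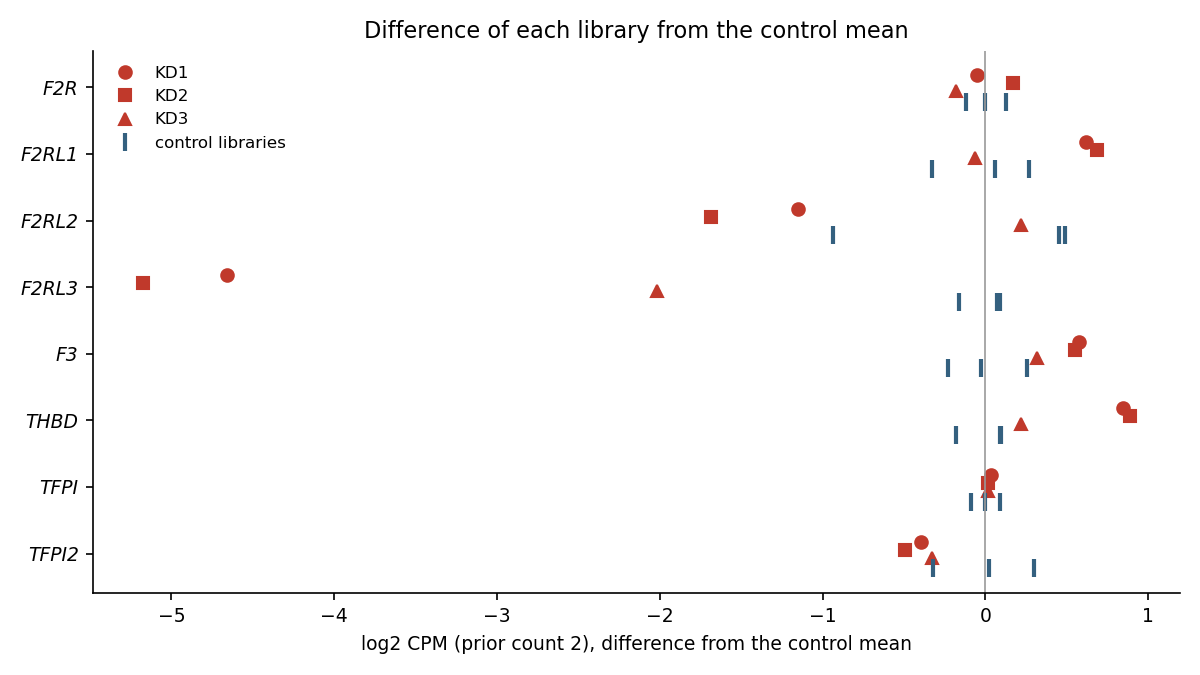
Difference of each library from the control mean on log2 CPM (prior count 2), for the HHEX shRNA libraries KD1 (circle), KD2 (square) and KD3 (triangle), and for each control library (blue bar) from the mean of the other 2 controls. F2RL3 reached -4.66, -5.18 and -2.02, and KD3 lay nearer to the controls than KD1 and KD2 for F2RL3, F3 and THBD.

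KD1 and KD2 lay close together for most of these genes, and KD3 was nearer to the control mean for F2RL1, F2RL2, F2RL3, F3, TFPI2 and THBD. The log2 difference of F3 from the control mean was 0.58, 0.55 and 0.32 in KD1, KD2 and KD3, and that of THBD was 0.84, 0.89 and 0.22. For TFPI2 it was -0.39, -0.49 and -0.33. HHEX had another pattern among the 3 libraries, being not reduced in KD1 and lower in KD2 and KD3. The counting intervals of HHEX overlapped between KD2 (6.52 to 9.55 CPM) and KD3 (5.80 to 8.65 CPM), so that their order is not resolved.

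Ordered by TPM, the HHEX shRNA libraries had F3 (544 ± 58.8) and TFPI2 (507 ± 19.3) on top with overlapping ranges, then F2RL1 (124 ± 34.0), TFPI (77.7 ± 1.81), F2R (34.3 ± 5.13) and THBD (26.2 ± 6.64), and last F2RL3 (2.25 ± 2.82) and F2RL2 (0.503 ± 0.467). F2R and THBD overlapped, as did F2RL3 and F2RL2. The control libraries had TFPI2 (684 ± 62.4) above F3 (397 ± 58.9), F2RL1 (92.5 ± 11.9), TFPI (77.9 ± 4.65), F2R (35.3 ± 3.50), F2RL3 (23.5 ± 1.69), THBD (16.6 ± 0.822) and F2RL2 (0.939 ± 0.357). In the controls no neighbours in this order overlapped, although with the length of the longest transcript TFPI (86.5) stood above F2RL1 (68.4). F3 stood above TFPI2 in KD1 and KD2, while in KD3 TFPI2 (528) stood above F3 (476), as in the controls. F2RL3 stood below THBD in the HHEX shRNA libraries and above it in the controls.

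No member passed an adjusted p of 0.05 in edgeR's quasi-likelihood test over all genes, which 26 genes or 0.182% did. At an unadjusted p under 0.05 the count was 4 members (F2RL3, THBD, F3 and TFPI2), beside 20.6% of all tested genes. DESeq2 called 2 members, F2RL3 and F3, beside 6.1% of the genes it gave an adjusted p, and gave none for F2RL2. Without KD3 edgeR called 5 members, with F2RL1 added to the 4, beside 31.6% of tested genes. Groups did not overlap for 2 members that were lower (F2RL3 and TFPI2; 13.3% of tested genes) and 2 that were higher (F3 and THBD; 11.6%). F2RL3 alone had every HHEX shRNA library under 50% of the control mean, as 1.2% of tested genes did. Since this contrast chose the set, nothing is read from these counts.

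The genes whose profile over the 6 libraries was most like that of F2RL3, among 13433 genes of at least 1 CPM on average, were COL21A1, a collagen, the pseudogene POLRMTP1, ABCG1, a sterol transporter, KLHDC7B and IL20RB, a cytokine receptor subunit. The measure was the root mean square difference of log2 CPM centred on the control mean, and it was 0.40 for COL21A1 and 0.73 for IL20RB. COL21A1 had 0.135, 0 and 2.75 CPM in KD1, KD2 and KD3, against 7.40, 5.64 and 7.55 CPM in the controls. IL20RB had 0.404, 0.429 and 3.10 CPM in the HHEX shRNA libraries, against 7.92, 8.63 and 6.77 CPM in the controls. POLRMTP1 and KLHDC7B had 0 CPM in KD1 and KD2, and ABCG1 had 0.0674 and 0 CPM. The log2 values of these genes in KD1 and KD2 are thus largely set by the prior count. In each of the 5 genes KD3 lay between KD1 and KD2 on one side and the controls on the other, as in F2RL3, which the choice by likeness fixes. The profile most like F3 was that of CCDC86 (0.04), followed by LPCAT2 and RBM8A, and the one most like THBD was PPP2R1B (0.04), followed by CLMP and EIF4E. DERL2, CERCAM and PSME1 were most like TFPI2, STAU1, PACSIN2 and GOPC most like TFPI, DNMBP, HNRNPR and TAF9B most like F2RL1, and SLC38A2 and PM20D2 most like F2R. F2RL2, whose counts were few, was nearest to GSDMB (0.13), CCDC191 and PRELID3A.

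Both annotated neighbours of F2RL3 were also lower in every HHEX shRNA library than in any control. SIN3B, a scaffold of histone deacetylase complexes, ends 8.51 kb upstream on the same strand and had 72.6, 68.2 and 106 CPM in KD1, KD2 and KD3, against 138, 140 and 150 CPM in the controls. Its log2 fold change was -0.80 (SE 0.17, adjusted p = 0.0986, edgeR). CPAMD8, a protease inhibitor-like gene, begins 341 bases beyond the end of F2RL3 on the opposite strand, so that the genes lie tail to tail. It had 0.472, 0.286 and 1.48 CPM in KD1, KD2 and KD3, against 5.68, 4.85 and 4.88 CPM in the controls (log2 fold change -2.77, SE 0.51, adjusted p = 0.0768, edgeR). No source used here says whether reads were counted by strand, and whether reads at the ends were shared between the genes was not tested. DESeq2 called both genes (adjusted p = 0.00692 for SIN3B and 2.36e-05 for CPAMD8).

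The next tested gene upstream, TMEM38A, an ion channel gene 199 kb away, had 4.18, 4.86 and 8.32 CPM in KD1, KD2 and KD3, against 10.5, 11.8 and 9.37 CPM in the controls (log2 fold change -0.87, SE 0.28, adjusted p = 0.156, edgeR). TMEM38A, SIN3B, F2RL3 and CPAMD8 are thus 4 consecutive tested genes whose groups did not overlap, all lower in HHEX shRNA libraries. The run includes F2RL3, by which the set was chosen, and how often such runs occur over all genes was not tested. The window of 500 kb on each side was chosen after the values of the neighbours were seen. Of its 27 other tested genes, 19 had a negative and 8 a positive log2 fold change, with a median of -0.26 beside -0.01 over all tested genes. The groups did not overlap for 4 that were lower (TMEM38A, SIN3B, CPAMD8 and ABHD8; 13.3% of all tested genes) and 2 that were higher (EPS15L1 and CHERP; 11.6%), which is near those shares. EdgeR called 0 of the 27 at an adjusted p under 0.05. At an unadjusted p under 0.05 it gave 3 lower and 1 higher (10.2% and 10.4% of all tested genes). DESeq2 called 2, both lower, beside 2.88% lower of the genes it gave an adjusted p. HAUS8 and MYO9B, the next tested genes downstream of CPAMD8, had log2 fold changes of 0.61 and 0.08 with overlapping groups.

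**Figure D4:**
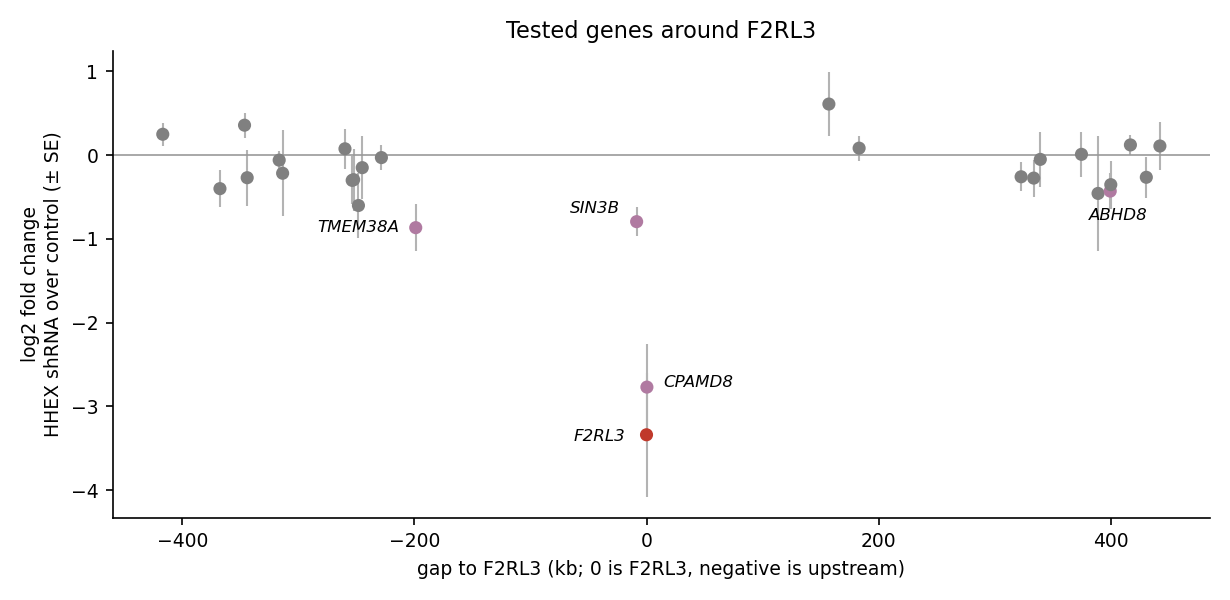
Log2 fold change (HHEX shRNA over control, bars are 1 SE) of F2RL3 (red) and the 27 other tested genes within 500 kb, by their gap to F2RL3 in kb (negative is upstream). Purple marks neighbours that were lower without overlap between the groups, and CPAMD8 at -2.77 and SIN3B at -0.80 lie nearest to F2RL3 at -3.34.

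Beyond the 8 genes, 125 genes of 9 lists describe the pathway around them, from coagulation factors to genes that thrombin induces, and 84 were tested. EdgeR called 1 of the 84 higher (CXCL8) and 0 lower at an adjusted p under 0.05, beside 0.105% and 0.077% of all tested genes. At an unadjusted p under 0.05 it gave 18 higher and 4 lower, beside 10.4% higher and 10.2% lower of all tested genes. DESeq2 called 12 higher and 2 lower, beside 3.22% higher and 2.88% lower of the genes it gave an adjusted p. Without KD3 edgeR called 25 higher and 11 lower, beside 16.5% higher and 15.1% lower of tested genes. The same shares of all genes apply to the counts of each list below. A positive log2 fold change was found for 59 of the 84 (70.2%), beside 48.6% of all tested genes, and the median was 0.13 beside -0.01. The lists were chosen with earlier results of these data known, so that these counts are a description only.

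The clotting factors themselves were almost absent from these cells. Of 16 genes for coagulation factors and fibrinogen, F2 (prothrombin), F5, F7, F9, F11, F13A1, F13B, FGA and KNG1 had no counts in any library, and 2 were tested. F8, the cofactor of factor IXa, had 6.81, 6.57 and 12.7 CPM in KD1, KD2 and KD3, against 14.6, 9.76 and 12.7 CPM in the controls (log2 fold change -0.51, adjusted p = 0.348, edgeR). F12 stood at 0.956 ± 0.277 CPM in HHEX shRNA libraries and 0.904 ± 0.654 CPM in controls (SD, n = 3 each). Transcripts of the receptor for factor VIIa and of thrombin receptors were thus counted, while F7 and F2 had 0 counts, which allows up to 3 counts or 0.225 CPM in a library. In the vitamin K cycle 2 of 3 genes were tested, GGCX (log2 fold change -0.23) and VKORC1L1 (0.14), with overlapping groups.

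Of 11 natural anticoagulants 5 were tested. ANXA5, which covers phosphatidylserine, had 593, 554 and 437 CPM in KD1, KD2 and KD3, against 352, 378 and 293 CPM in the controls (log2 fold change 0.63, SE 0.17, adjusted p = 0.121, edgeR). SERPINE2, a thrombin inhibitor of the pericellular space, had 578, 549 and 363 CPM in the HHEX shRNA libraries, against 824, 892 and 550 CPM in the controls (log2 fold change -0.61, adjusted p = 0.207). ADTRP, which regulates TFPI, had a log2 fold change of 0.51 with overlapping groups. At an unadjusted p under 0.05 the list had 1 gene higher and 1 lower, and DESeq2 called ANXA5 higher.

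Of 21 proteases known to cut these receptors 4 were tested. MMP1, a collagenase that can cut PAR1, was far the most abundant, with values of 3905, 3621 and 5656 CPM over KD1 to KD3, against 5314, 5676 and 4367 CPM in the controls, with overlapping groups. CTSS, a lysosomal cathepsin that can cut PAR2, had 0.135, 0.429 and 1.20 CPM in the HHEX shRNA libraries, against 3.06, 3.39 and 4.69 CPM in the controls (log2 fold change -2.65, SE 0.60, adjusted p = 0.105, edgeR). Its groups lay apart as those of F2RL3 did, with KD3 nearest to the controls and the levels of KD1 and KD2 close to the floor, and DESeq2 called it lower. PRSS3, a trypsin, had a log2 fold change of 0.24 with overlapping groups. PLAU, urokinase, had 232, 211 and 113 CPM in KD1, KD2 and KD3, against 177, 194 and 174 CPM in the controls. Its log2 fold change of 0.03 thus averages KD1 and KD2, above every control, with KD3, below every control.

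The G proteins and effectors of the receptors were all tested, 22 of 22, and log2 fold changes lay between -0.36 and 0.41. ARHGEF11 (0.40, SE 0.17), a RhoA exchange factor, ITPR2 (0.41, SE 0.17), a calcium release channel, and GNAI3 (0.23, SE 0.11) had the smallest p, with higher values in every HHEX shRNA library. EdgeR called 0 of the 22, with 2 higher and 0 lower at an unadjusted p under 0.05, and DESeq2 called 0. Of 16 genes of desensitization and trafficking 15 were tested, and BICD1, an adaptor that binds the tail of PAR1, had 21.0, 21.1 and 17.0 CPM in KD1, KD2 and KD3, against 13.7, 9.23 and 10.6 CPM in the controls (log2 fold change 0.82, SE 0.20, adjusted p = 0.109, edgeR). GRK5, a receptor kinase, stood at 0.39 and TMED2, which carries PAR2 from the Golgi, at -0.26 on the log2 scale, both without overlap. Only BICD1 was called in this list by DESeq2, and it was also the 1 gene at an unadjusted p under 0.05.

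Of the 10 genes linked to tissue factor activity or TFPI clearance at the cell surface, all tested, P4HB, a protein disulfide isomerase, had 501, 471 and 519 CPM in KD1, KD2 and KD3, against 812, 750 and 687 CPM in the controls (log2 fold change -0.59, SE 0.14, adjusted p = 0.105, edgeR). FLNA, a filamin that binds the tail of tissue factor, had 2063, 2237 and 1794 CPM in the HHEX shRNA libraries, against 1553, 1126 and 1435 CPM in the controls (log2 fold change 0.57, adjusted p = 0.158). ANO6, the scramblase that exposes phosphatidylserine, had 105, 124 and 116 CPM in the HHEX shRNA libraries, against 98.6, 83.9 and 82.5 CPM in the controls (log2 fold change 0.38, adjusted p = 0.164). The groups of each of the 3 genes were apart, and DESeq2 called FLNA higher and P4HB lower.

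Genes known to be induced by thrombin or by agonists of its receptors had a median log2 fold change of 0.57 over 15 tested genes. CXCL8, the chemokine IL-8, had 76.2, 79.0 and 99.2 CPM in KD1, KD2 and KD3, against 29.4, 38.6 and 24.3 CPM in the controls, and rose by 1.46 on the log2 scale (SE 0.19, adjusted p = 0.0387, edgeR). That call was lost when KD1, KD2, control1, control2 or control3 was left out, with log2 fold changes of 1.32 to 1.67. PTGS2, a cyclooxygenase, had a log2 fold change of 1.34 (SE 0.26, adjusted p = 0.0817, edgeR) and was higher in every HHEX shRNA library. The groups did not overlap for 8 higher genes and 1 lower gene, beside 11.6% higher and 13.3% lower of all tested genes. DESeq2 called 8 higher and 0 lower, whose shares over all genes were 3.22% and 2.88%. Without KD3 edgeR called 9 higher and 5 lower, beside 16.5% and 15.1%, so that the count of lower genes depends on this library. These are the readouts of many other signals too, and no receptor activity was measured.

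Of 11 transcription factors known to act on the F3 or THBD promoter 10 were tested, with a median log2 fold change of 0.34. FOSL1, an AP-1 subunit, had 415, 394 and 278 CPM in KD1, KD2 and KD3, against 165, 169 and 124 CPM in the controls (log2 fold change 1.25, SE 0.19, adjusted p = 0.0518, edgeR). JUN, its partner, had 82.9, 82.5 and 165 CPM in the HHEX shRNA libraries, against 53.3, 79.3 and 65.4 CPM in the controls (log2 fold change 0.74, adjusted p = 0.210). NFKB1 stood at 0.31 on the log2 scale (adjusted p = 0.191), and all 3 were higher in every HHEX shRNA library. EdgeR called 0 of the 10, with 4 higher and 0 lower at an unadjusted p under 0.05, beside 10.4% and 10.2% of all tested genes. DESeq2 called 1 higher, and without KD3 edgeR called 2 higher and 2 lower. EGR1, an immediate early factor, had 17.6, 19.3 and 357 CPM in KD1, KD2 and KD3, against 36.2, 34.9 and 42.6 CPM in the controls. FOS, another AP-1 subunit and 1 of the 4, had 6.94, 5.93 and 175 CPM in the HHEX shRNA libraries, against 3.44, 5.84 and 5.403 CPM in the controls. For both genes KD3 stood far above the other 5 libraries.

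**Figure D5:**
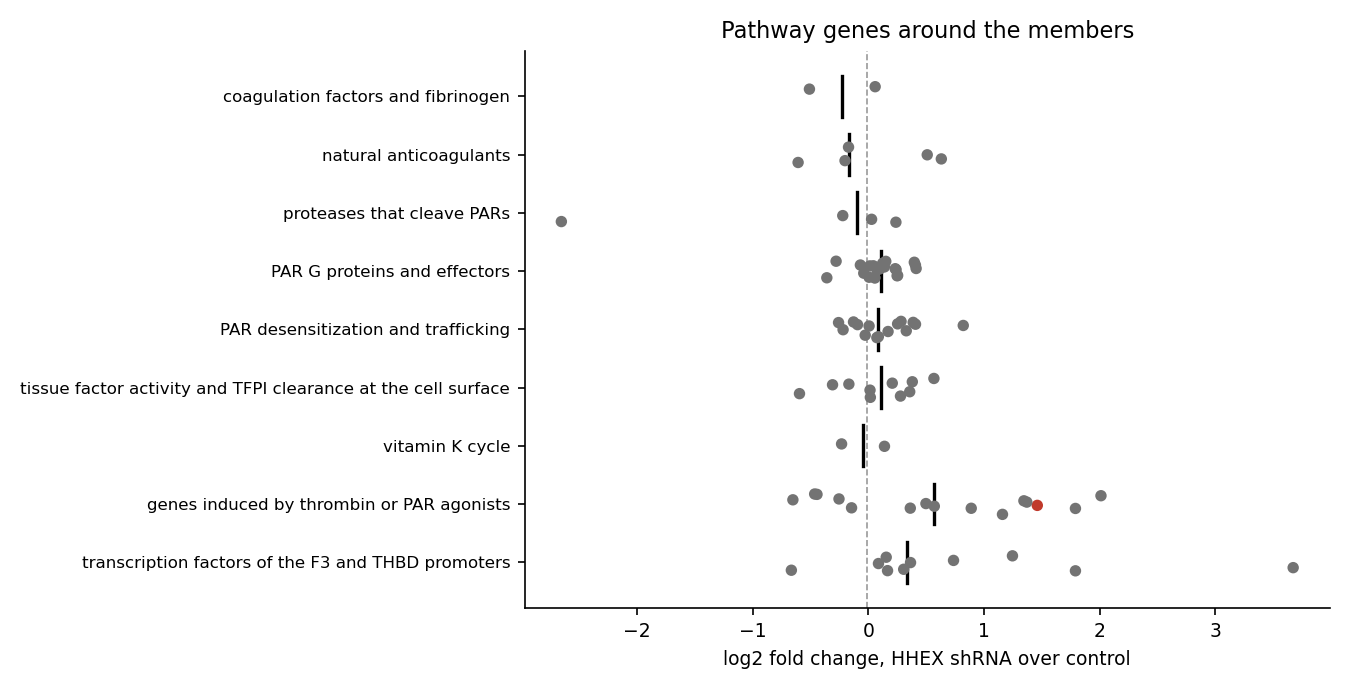
Log2 fold change (HHEX shRNA over control) of each tested gene of the 9 lists, 1 point per gene, with the list's median as a black bar and the median of all tested genes (-0.01) as a dashed line. The median is 0.57 for genes induced by thrombin or receptor agonists and 0.34 for the transcription factors, and CXCL8, the 1 gene past an adjusted p of 0.05, is red.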

How the data were processed

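RNA-seq was analysed in 6 libraries of 8505C cells, 3 labelled HHEX shRNA and 3 labelled control shRNA. Trizol extraction and TIANSeq mRNA capture and library kits were used, per the labels' protocols. The authors deposited 1 table with raw counts per gene. The sources used here name no aligner, counter, genome build or strand setting. A further 6 columns with normalized values of these libraries were not used. Gene IDs of all 58735 named genes, and the coordinates of 58683, equal those of GENCODE release 29 on GRCh38, whose exons gave the lengths. A further 998 unnamed loci (0.239% to 0.298% of counts) were left out. Columns name the group of a library and no replicate of the titles, so they were mapped to groups only.

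Counts were filtered with filterByExpr, scaled by TMM and tested with glmQLFit (robust) and glmQLFTest of edgeR 4.0.16 in R 4.3.3, with Benjamini-Hochberg adjustment over 14280 genes and a threshold of 0.05. The fit was tested on simulated data. CPM use TMM factors, log2 CPM a prior count of 2, and TPM the merged exon length. Alternatives were RLE, upper-quartile and no scaling, no filter, no robust estimation, DESeq2 1.42.0, the longest transcript as length, and leaving out each library.

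The 8 genes, the 9 pathway lists and the 6 lists of cell type markers were chosen with earlier results of these data known. Named genes are the 8 genes, HHEX, from each pathway list the genes past the threshold and up to 3 with the smallest p, the 5 genes most like F2RL3 and the 3 most like each other gene, and the neighbours of F2RL3 and of the receptor cluster. PLAU, EGR1, FOS, other genes of the region around F2RL3 and genes with no counts are named outside this rule and were chosen after their values were seen. Some genes that the rule would name are not reported here.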

Additional observations from a re-analysis of the deposited data

How the results depend on the processing

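No paired analysis was possible because the table's columns carry no replicate number of the titles, so that no replicate block could be fitted. Without a filter on low counts edgeR called 550 genes, and 8 pathway genes higher and 2 lower. That fit covered more genes, so that the shares given above do not apply to it, and nothing is read from these counts. DESeq2 called 854 genes, 12 pathway genes higher, 2 lower, and 2 of the 8 members. Leaving out 1 library at a time gave 0 to 4675 called genes, 0 to 25 pathway genes higher, 0 to 11 lower, 0 to 5 members called and 4 to 6 members without overlap between the groups. The highest of these counts came without KD3, except that 6 members were also apart without control1. Groups of fewer libraries separate more easily, and the share of all genes apart without 1 library was not computed. Nothing is therefore read from the counts of members apart. Where edgeR called 0 genes (without KD1, KD2, control2 or control3), 1789, 1625, 1947 and 1806 genes in that order had an unadjusted p under 0.05. The cause of these shifts was not tested.

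Under all alternatives F2RL3 and TFPI2 kept a negative and F2RL1, F3 and THBD a positive log2 fold change, within -5.16 to -2.86 for F2RL3, -0.51 to -0.29 for TFPI2, 0.32 to 0.67 for F2RL1, 0.42 to 0.58 for F3 and 0.57 to 0.89 for THBD. The log2 fold change of F12 turned negative under upper-quartile scaling (-0.0057), without KD3 (-0.17) and without control1, and leaving out 1 library gave -0.40 to 0.41. Depth limits F2RL2 and F12, whose counts were few in every library, and CTSS in the HHEX shRNA libraries. It also limits how exactly the size of the F2RL3 difference is known in KD1 and KD2, which had 10 and 6 counts of it.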
